A study of Mus musculus with 6 samples.

Results

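Acetylcholine is made, packaged and recovered by a small set of proteins and is read by receptors of a muscarinic and a nicotinic family. The transcripts of 10 genes of this system were followed in tissue of the locus coeruleus of 3 wild-type (WT) and 3 5xFAD mice. They were chosen by name and not by a rule on their values, though earlier results of these data were known. The 10 are the tegmental cholinergic markers Chat, Slc18a3 and Slc5a7, the acetylcholinesterase gene Ache, the muscarinic receptor genes Chrm1, Chrm2 and Chrm3 and the nicotinic subunit genes Chrna3, Chrna4 and Chrnb2. All 10 were found among the 56923 genes of the deposited table, 1 row each, and all 10 were among the 16411 genes tested. The study is concerned with tau, sleep loss and overexcitable neurons in the locus coeruleus, the noradrenergic nucleus of the dorsal pons. WT libraries carry the numbers 62, 63 and 66 and 5xFAD libraries the numbers 64, 65 and 79. The 5xFAD mice are transgenic animals in which mutant human genes of familial Alzheimer's disease are expressed under mouse Thy1 sequences, so the transgenes act mainly in neurons, and the WT mice carry none. Age, sex, and whether each number stands for a separate animal are not given in the labels, so p-values measure only the spread between these libraries, which may be technical. The libraries were made from poly-A-selected RNA of punched tissue and each held 15158712 to 20079349 reads assigned to genes. In the deposited table Chat is ENSMUSG00000021919.9, Slc18a3 is ENSMUSG00000100241.2 and Slc5a7 is ENSMUSG00000023945.8.

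Cholinergic neurons make acetylcholine with choline acetyltransferase (Chat), load it into vesicles through the transporter encoded by Slc18a3 and take choline back up through the transporter encoded by Slc5a7. Acetylcholinesterase (Ache) splits the released transmitter. In the pons, cholinergic cell bodies lie in the laterodorsal and pedunculopontine tegmental nuclei and in cranial motor nuclei, close to but not within the locus coeruleus, and noradrenergic neurons themselves carry acetylcholine receptors. Muscarinic receptors couple to G proteins, those of Chrm1 and Chrm3 to Gq and that of Chrm2 to Gi, and nicotinic receptors are cation channels built of 5 subunits.

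Chat and Slc18a3 form 1 locus. Slc18a3 is an intronless gene that lies inside Chat on the same strand, and no exon base is shared between them in GENCODE M21 (GRCm38). The promoter windows of these genes and of Slc5a7 are shown because the 3 transcripts varied together between libraries. The sequences are from RefSeq, build GRCm38.p6, run 5′ to 3′ on the minus strand from 250 bases before to 50 bases after the annotated start, and lie at chr14:32465860-32466159 for Chat, chr14:32464801-32465100 for Slc18a3 and chr17:54298985-54299284 for Slc5a7. This is not the build named for the authors' processing. Capitals mark the half-site of the cAMP response element, TGACG or CGTCA on the strand shown.
Chat: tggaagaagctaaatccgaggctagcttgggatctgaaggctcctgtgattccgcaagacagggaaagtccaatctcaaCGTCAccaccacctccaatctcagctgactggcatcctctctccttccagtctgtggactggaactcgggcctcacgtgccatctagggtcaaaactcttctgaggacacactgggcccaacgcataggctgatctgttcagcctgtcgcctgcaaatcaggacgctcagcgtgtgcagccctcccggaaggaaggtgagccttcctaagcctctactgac
Slc18a3: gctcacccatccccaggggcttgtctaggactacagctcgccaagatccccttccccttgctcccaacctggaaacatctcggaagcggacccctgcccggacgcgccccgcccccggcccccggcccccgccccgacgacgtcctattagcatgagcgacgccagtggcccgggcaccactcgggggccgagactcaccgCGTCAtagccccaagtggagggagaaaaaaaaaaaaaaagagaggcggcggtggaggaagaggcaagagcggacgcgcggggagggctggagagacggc
Slc5a7: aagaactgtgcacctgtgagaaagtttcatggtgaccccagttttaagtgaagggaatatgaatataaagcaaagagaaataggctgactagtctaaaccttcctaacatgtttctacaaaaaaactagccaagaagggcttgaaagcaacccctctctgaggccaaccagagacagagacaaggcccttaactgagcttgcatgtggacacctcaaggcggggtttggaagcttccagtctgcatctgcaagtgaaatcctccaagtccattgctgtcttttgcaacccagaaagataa
The half-site occurred 1 time in the Chat window, 1 time in the Slc18a3 window and 0 times in the Slc5a7 window. Among the 9 members with a window in the RefSeq table, 3 held it (Chat, Slc18a3 and Chrnb2), and it was present in 20.8% of all 32851 promoter windows of this length. A GC box (GGGCGG or CCGCCC) was in the windows of Slc18a3, Ache, Chrm2, Chrna3, Chrna4 and Chrnb2 and in 35.7% of all windows. The E-box CACGTG was in those of Chat and Ache and in 7.15% of all windows, and TATAAA or TTTATA was in that of Slc5a7 and in 13.6% of all windows. Both strands were searched, no motif contains another in its letters, and a match is a description of these letters only. The GC content was 55.7% for Chat, 67.0% for Slc18a3 and 44.7% for Slc5a7, against a median of 52.7% over all windows.

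None of the 10 genes differed between the genotypes beyond the spread of the libraries. Values are normalized counts, which are reads divided by a size factor of each library. A positive log2 fold change means a higher level in 5xFAD, on the scale log2(normalized count + 1), and was tested with limma over all 16411 genes, with n = 3 per group. The limma test called 0 of the 10, at adjusted p = 0.9995 to 0.9997, and 0 of 10 had an unadjusted p under 0.05. The edgeR and DESeq2 tests on recovered reads also called 0. Over all tested genes, 0.00609% were called (1 gene, Thy1, whose sequences drive the transgenes) and 2.32% had an unadjusted p under 0.05. In 0 of the 10 genes did the groups of 3 libraries fail to overlap, against 7.42% of all tested genes. The values were lower in 5xFAD for 7 of the 10 and higher for 3, with a median log2 fold change of -0.07, against 49.8% lower and a median of 0.0005 over all tested genes.

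**Figure D1:**
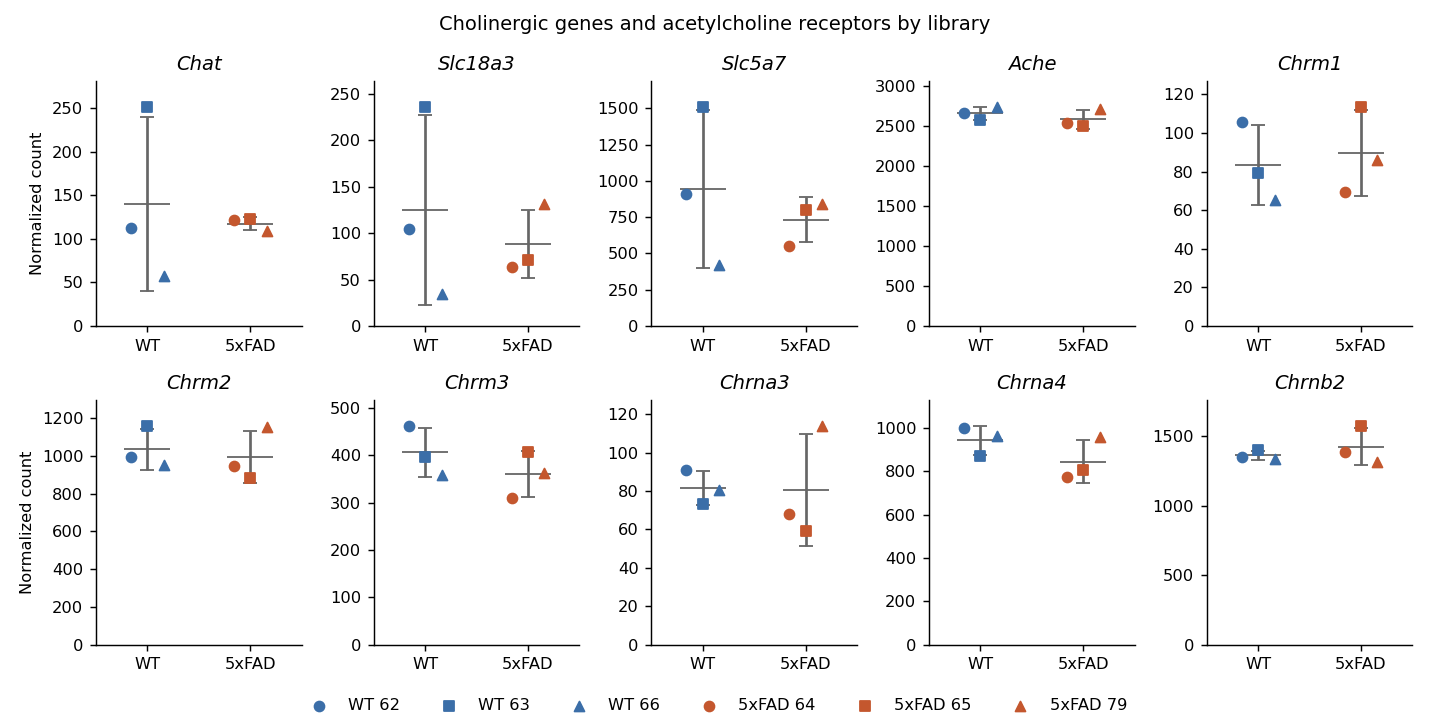
Normalized count of each of the 10 genes (y axis, from 0, a scale per panel) in the 3 WT and 3 5xFAD libraries (x axis); points are libraries, with a marker for each library, and bars are the mean ± SD of a group. Chat ranges from 57.2 to 251 within WT and Ache from 2577 to 2730, and the groups overlap in all 10 panels.

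The synthetic enzyme and both transporters differed more among the WT libraries than between the genotypes. Chat, the enzyme, had a normalized count of 112 in WT 62, 251 in WT 63 and 57.2 in WT 66, and of 121, 123 and 109 in 5xFAD 64, 65 and 79. The 3 5xFAD libraries therefore lay close together, between a high and a low WT library. The WT mean was 140 ± 99.96 and the 5xFAD mean 118 ± 7.56 (SD, n = 3 libraries per genotype). The estimate in log2 units was 0.00, with an SE of 0.51 and a 95% interval from -1.26 to 1.26. The counting error is smaller than this spread, since the exact 95% Poisson interval of Chat was 223 to 282 in WT 63 and 43.2 to 74.2 in WT 66.

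Slc18a3, the vesicular transporter, read 105, 236 and 34.7 in WT 62, 63 and 66, while 5xFAD 64, 65 and 79 read 63.6, 70.7 and 131. WT 63 was again the highest library and WT 66 the lowest, 6.79-fold apart. The WT mean was 125 ± 102 and the 5xFAD mean 88.4 ± 37.0 (SD, n = 3 libraries per genotype). The estimate in log2 units was -0.18, with an SE of 0.74 and a 95% interval from -2.04 to 1.67. Slc5a7, the high-affinity choline transporter, read 908, 1507 and 423 in WT 62, 63 and 66, while 5xFAD 64, 65 and 79 read 554, 802 and 844. The same pair of WT libraries stood at the ends, 3.57-fold apart, and the 5xFAD libraries lay between them. Its log2 fold change, -0.21, had an SE of 0.53 and a 95% interval from -1.61 to 1.19.

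For none of these 3 genes did the 95% interval exclude a 1.5-fold difference in either direction, and WT 63 and WT 66 each decide the estimate. Without WT 63 the log2 fold change became 0.55 for Chat, 0.46 for Slc18a3 and 0.22 for Slc5a7. Without WT 66 it became -0.51, -0.90 and -0.70. In neither case did any of them pass in the limma test. In the authors' deposited table, with its sign turned to 5xFAD over WT, the log2 fold change was -0.25 for Chat (SE 0.59), -0.50 for Slc18a3 (SE 0.79) and -0.37 for Slc5a7 (SE 0.53), at an adjusted p of 0.9999 for each.

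**Figure D2:**
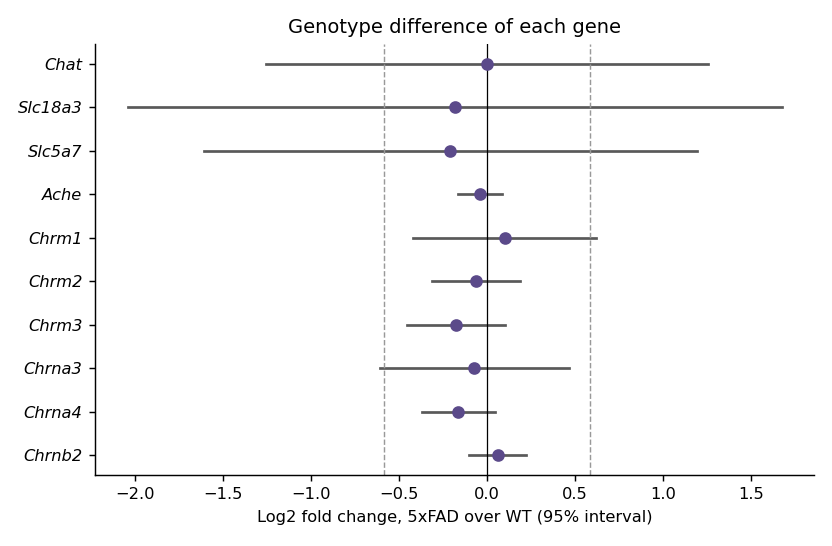
Log2 fold change of 5xFAD over WT (x axis) of each of the 10 genes (y axis); points are the limma estimates, lines the 95% intervals, and dashed lines mark a 1.5-fold difference either way. The lines of Chat, Slc18a3 and Slc5a7 cross both dashed lines, while those of Ache, Chrm2, Chrm3, Chrna4 and Chrnb2 stay between them.

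The spread of the 3 genes within groups was among the widest in the table. The SD within groups on the log2 scale was 0.75 for Chat, 1.05 for Slc18a3 and 0.69 for Slc5a7, against a median of 0.14 over all tested genes. Among tested genes with a mean normalized count within 2-fold of their own, 98.6%, 99.2% and 99.8% had a smaller SD, in that order. Averaged over the 3 genes, the deviation from each gene's own log2 mean was 1.15 in WT 63 and -1.08 in WT 66, and between -0.31 and 0.19 in the other libraries. In bulk tissue, fewer cells of a type and less RNA per cell cannot be told apart.

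The summed counts of motor neuron and noradrenergic genes were also lowest in WT 66. Some other neuron lists went the other way. The sum of GABA and glycine neuron genes was highest in WT 66, at 28250 against 24917 to 28033 in the other libraries. That of glutamate neuron genes was highest there too, at 7335 against 6325 to 7160. By contrast, the sum of 6 serotonergic genes was lowest in WT 66, at 366 against 384 to 661 in the other libraries. Its members were divided. Htr1a, the most abundant of them, Slc6a4 and Gata3 were lowest in WT 66. Tph2 was lowest in 5xFAD 79 and Fev in 5xFAD 64, while Gata2 was highest in WT 66. The sum of the 15 acetylcholine receptor genes outside the members was also lowest in WT 66, at 465, but was nearly as low in 5xFAD 79, at 475. It reached 653 in WT 63. Its most abundant genes, Chrnb3, Chrna7 and Chrna6, were lowest in WT 66, while Chrm4 and Chrnb4 were highest there. Over the 11 brainstem motor neuron genes, chosen to cover cholinergic cells of cranial motor nuclei, the summed normalized count was 1386, 1622 and 885 in WT 62, 63 and 66 and 971, 1243 and 1508 in 5xFAD 64, 65 and 79. The highest and the lowest library of this sum were those of Chat. Of the 11, 9 were tested and 0 passed in limma, edgeR or DESeq2 (0 at an unadjusted p under 0.05 in limma). Chodl, a lectin-like membrane protein found in motor neurons, ranged from 151 to 440. Mnx1, a homeobox factor of somatic motor neurons, was at 0 in 3 libraries and at no more than 1.86 in the others.

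The 8 mesopontine cholinergic genes summed to 2018, 2901 and 2016 in WT 62, 63 and 66, against 2315, 2884 and 1953 in 5xFAD 64, 65 and 79. This sum was also highest in WT 63, but its lowest library was 5xFAD 79. These sums are mostly Nos1, the neuronal nitric oxide synthase of tegmental cholinergic and of many other neurons. Nos1 was highest in WT 63 and lowest in WT 66, like Chat, at 2481 and 1602. It read nearly as much in 5xFAD 65, at 2461, and nearly as little in 5xFAD 79, at 1626. Of the 8, 6 were tested and 0 passed. Lhx8, a homeobox factor of forebrain cholinergic neurons, was at 0 in all 6 libraries, and Uts2, the urotensin gene of tegmental cholinergic neurons, ranged from 0 to 8.60.

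The 9 noradrenergic genes, which define the labelled tissue, summed to 12822, 14496 and 8063 in WT 62, 63 and 66, against 11284, 15962 and 12134 in 5xFAD 64, 65 and 79. All 9 were read in every library, led by the noradrenaline transporter Slc6a2 at 2311 to 4978 and the vesicular monoamine transporter Slc18a2 at 1433 to 2997. WT 66 was the lowest library here too, while the highest was 5xFAD 65 and not WT 63. The same library WT 66 read 1258 in the sum of 5 choroid plexus genes, mostly Ttr at 1107, against 61.3 to 129 in the other 5 libraries. Cerebellar genes summed to 15962 in WT 63 and 20625 in 5xFAD 65, against 3515 in WT 62, 4601 in WT 66, 11526 in 5xFAD 64 and 6744 in 5xFAD 79. All 10 cerebellar genes had higher values in 5xFAD, with a median log2 fold change of 1.26, and 0 passed in limma (1 at an unadjusted p under 0.05) or in edgeR and DESeq2. Glial sums did not share the order of Chat, with oligodendrocyte genes at 199494 to 311565, highest in 5xFAD 79, and astrocyte genes at 51252 to 56026, highest in WT 66. The part of any of these cell types in the values of Chat, Slc18a3 and Slc5a7 was not tested.

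**Figure D3:**
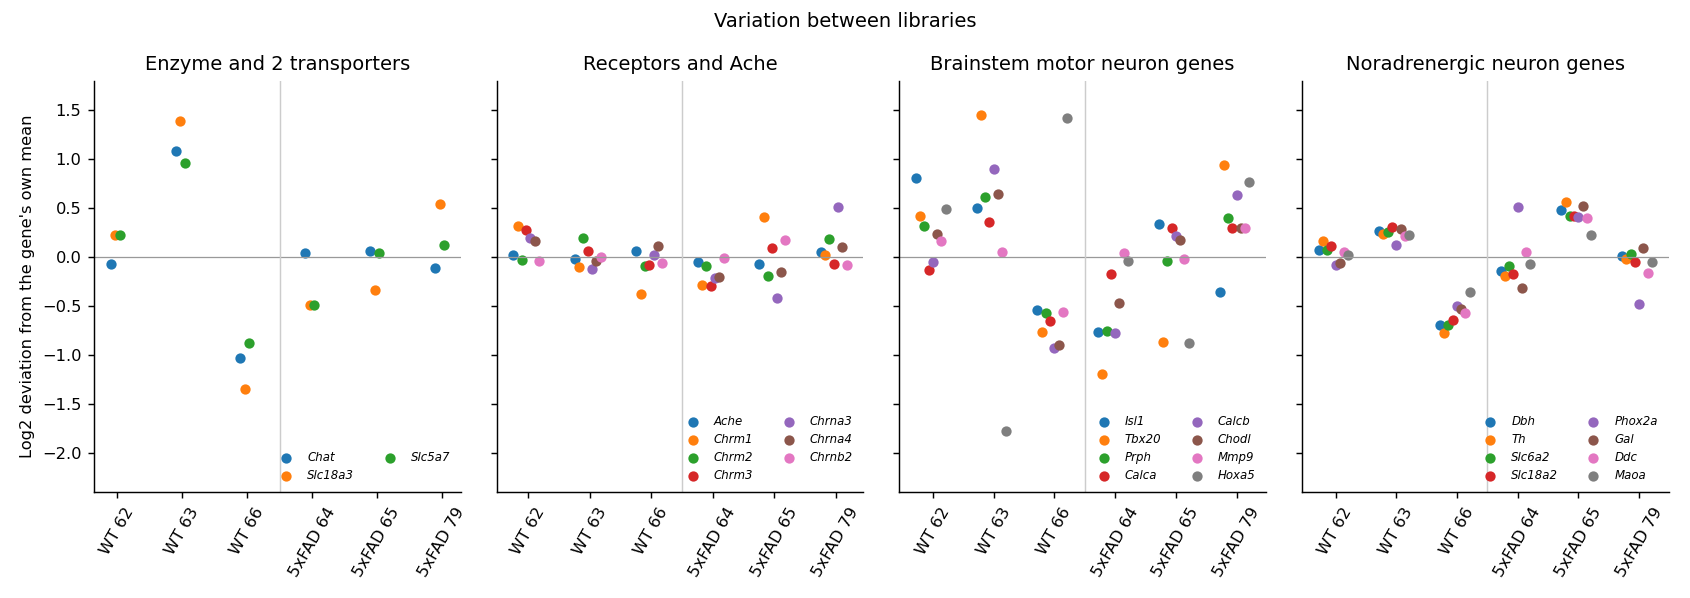
Deviation of each gene from its own mean over the 6 libraries, in log2 units (y axis), by library (x axis), with 1 colour per gene in each panel, for the enzyme and both transporters, for the other 7 members, and for 8 tested genes each of the motor neuron and noradrenergic lists. Chat, Slc18a3 and Slc5a7 are highest in WT 63 and lowest in WT 66, while the receptors and Ache lie between -0.41 and 0.52.

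Genes most like the 3 were sought among 12225 named genes with a mean normalized count of at least 50. The measure was the root mean square difference between their log2 deviations and the average deviation of the 3 genes over the 6 libraries. The median difference over all genes compared was 0.67. The 3 genes themselves, at 0.15 for Slc5a7, 0.21 for Chat and 0.25 for Slc18a3, make up that average, so their small differences are partly built in. The 6 closest other genes were Slc35d3 at 0.23, Chodl at 0.26, the vesicular solute carrier Slc10a4 at 0.28, the neuropeptide gene Spx at 0.31, the receptor-like gene Pgr15l at 0.34 and the homeobox factor Lmx1b at 0.35. Slc10a4, found on vesicles of cholinergic and monoaminergic neurons, read 389, 629 and 196 in WT 62, 63 and 66, while 5xFAD 64, 65 and 79 read 374, 476 and 396. All 6 of these genes were highest in WT 63 and lowest in WT 66, which follows largely from choosing them by likeness to that pattern. With 6 libraries and this many genes, such likeness is a description of these libraries.

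Within the shared locus, Chat and Slc18a3 did not keep a fixed ratio. Chat over Slc18a3, as a ratio of normalized count + 1, was 1.07, 1.07 and 1.63 in WT 62, 63 and 66 and 1.90, 1.73 and 0.833 in 5xFAD 64, 65 and 79. The 5xFAD libraries held both the highest and the lowest ratio. The difference of the mean log2 ratio, 5xFAD minus WT, was 0.18 (WT SD 0.35, 5xFAD SD 0.65, n = 3 each, two-sided exact permutation p = 0.8, in a design that cannot give a p below 0.1). No exon base is shared, but reads of unspliced Chat RNA over the Slc18a3 exon cannot be told apart from those of Slc18a3.

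Ache, which ends the signal at the synapse, was the steadiest of the 10. It read 2657, 2577 and 2730 in WT 62, 63 and 66, while 5xFAD 64, 65 and 79 read 2535, 2495 and 2711, so its highest library was 1.09-fold above its lowest. WT 63 and WT 66, the extremes of Chat, did not stand apart here. Its log2 fold change, -0.04, had an SE of 0.06 and a 95% interval from -0.17 to 0.08.

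The Gi-coupled muscarinic receptor gene Chrm2 was the most abundant of the 3 muscarinic members per kilobase of exon. It read 994, 1160 and 951 in WT 62, 63 and 66, while 5xFAD 64, 65 and 79 read 949, 884 and 1151. The highest WT library and the highest 5xFAD library were nearly equal, and the groups overlapped. Its log2 fold change, -0.06, had an SE of 0.11 and a 95% interval from -0.31 to 0.19. Chrm3, which couples to Gq, read 462, 397 and 359 in WT 62, 63 and 66, while 5xFAD 64, 65 and 79 read 310, 407 and 363. The highest library was WT 62 and the lowest 5xFAD 64, and the groups overlapped. The estimate in log2 units was -0.18, with an SE of 0.12 and a 95% interval from -0.45 to 0.10. Chrm1, the other Gq-coupled member, read 106, 79.1 and 65.3 in WT 62, 63 and 66, while 5xFAD 64, 65 and 79 read 69.3, 113 and 86.0. The estimate in log2 units was 0.10, with an SE of 0.23 and a 95% interval from -0.42 to 0.62. Its 2 highest libraries were of different genotype.

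Among nicotinic subunits, Chrna4 came nearest to a difference without passing. Chrna4 and Chrnb2 encode the alpha and beta subunits of the most widespread nicotinic receptor of the brain. Chrna4 read 1000.1, 870 and 962 in WT 62, 63 and 66, while 5xFAD 64, 65 and 79 read 772, 805 and 960. 2 of the 3 5xFAD libraries lay below all WT libraries and the third, 5xFAD 79, lay among them. The WT mean was 944 ± 67.0 and the 5xFAD mean 846 ± 100.3 (SD, n = 3 libraries per genotype), and its log2 fold change of -0.16 (SE 0.09, 95% interval -0.37 to 0.04) had an unadjusted p of 0.107, the smallest of the 10, and an adjusted p of 0.9995 in limma. Without WT 63 or without 5xFAD 79 the unadjusted p fell under 0.05 and the limma adjusted p was 0.813 and 0.982, respectively. Over all tested genes, those with an unadjusted p under 0.05 also rose, from 381 to 990 without WT 63 and 561 without 5xFAD 79. Chrna4 was the only 1 of the 10 under 0.05 in either case, which cannot be told apart from that background.

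Chrnb2 read 1351, 1400 and 1338 in WT 62, 63 and 66, while 5xFAD 64, 65 and 79 read 1386, 1575 and 1315. The estimate in log2 units was 0.06, with an SE of 0.07 and a 95% interval from -0.10 to 0.22. The highest and the lowest library were both 5xFAD. In GENCODE M21, 16.3% of its exon bases are shared with exons of Adar on the opposite strand. The library protocol names no step that marks the strand, so reads of these bases may come from either gene. The size of the error in its count is not known. Such shared exon bases on the opposite strand made up 5.07% for Chrm1, 2.35% for Chrm2 and 2.12% for Ache, and there were none for the other 6 genes. Chrna4 over Chrnb2, as a ratio of normalized count + 1, was 0.740, 0.622 and 0.719 in WT 62, 63 and 66, against 0.557, 0.511 and 0.730 in 5xFAD 64, 65 and 79. The difference of the mean log2 ratio, 5xFAD minus WT, was -0.22 (WT SD 0.13, 5xFAD SD 0.27, n = 3 each, two-sided exact permutation p = 0.3).

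Chrna3, the alpha subunit of ganglionic nicotinic receptors, was low, at 91.0, 73.1 and 80.7 in WT 62, 63 and 66 and, among 5xFAD 64, 65 and 79, at 68.2, 59.3 and 114. The 5xFAD group held both the lowest and the highest library. Its log2 fold change, -0.07, had an SE of 0.24 and a 95% interval from -0.61 to 0.47. Over all 10 genes, the 95% interval excluded a 1.5-fold difference in either direction for 5 (Ache, Chrm2, Chrm3, Chrna4 and Chrnb2), against 71.4% of all tested genes. The bounds refer to mixed punched tissue, not to a cell type.

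Levels of different genes were compared as normalized counts per kilobase of exon, with lengths from GENCODE M21. Ache was highest at a mean of 566 (range over the 6 libraries 540 to 591) and lay above Chrna4 in all 6 libraries. Chrna4 at 178, Chrm2 at 168, Chrnb2 at 166 and Slc5a7 at 149 followed, with overlapping ranges from each to the next. Chrm3 at 61.2, Slc18a3 at 44.2, Chat at 27.4, Chrna3 at 15.4 and Chrm1 at 13.3 came after them, and the ranges of neighbours overlapped there too, while Slc5a7 lay above Chrm3 in all 6 libraries. With the length of the principal transcript in place of all exons, Chrnb2 moved to the second place, and Chat moved ahead of Slc18a3 (45.1 against 44.2), while the other places but those of Chrna4 and Chrm2 stayed as they were.

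The choline transporter gene was read at a higher level than those of the enzyme and the vesicular transporter in all 6 libraries. Per kilobase of exon, Slc5a7 was 6.74, 5.00 and 6.16 times Chat in WT 62, 63 and 66 and 3.80, 5.44 and 6.45 times Chat in 5xFAD 64, 65 and 79. It was 2.73 to 5.21 times Slc18a3 over the 6 libraries. With principal-transcript lengths the ratio to Chat was smaller, at 2.52 to 4.46, and that to Slc18a3 was 2.98 to 5.67. This comparison was added after the values were seen, and both ratios overlapped between the groups.

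The remaining acetylcholine receptor genes were mostly low. Of the other 15 receptor genes, 9 were tested, 4 with higher and 5 with lower values in 5xFAD, and limma, edgeR and DESeq2 called 0 (0 at an unadjusted p under 0.05 in limma, median log2 fold change -0.15). Among these 9, the nicotinic subunit genes Chrnb3, Chrna7 and Chrna6 had the highest means. Chrnb3 read 157, 178 and 101 in WT 62, 63 and 66, while 5xFAD 64, 65 and 79 read 147, 206 and 141. Chrna6, which assembles with it, was at 106, 162 and 77.6 in WT 62, 63 and 66, against 136, 165 and 84.0 in 5xFAD 64, 65 and 79. Both were at their highest in 5xFAD 65, followed by WT 63. Chrna7, which forms homomeric receptors, read 162, 186 and 125 in WT 62, 63 and 66, while 5xFAD 64, 65 and 79 read 132, 137 and 128, at a log2 fold change of -0.23 (SE 0.16).

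Chrnb1, known as a subunit of muscle receptors, had the largest log2 fold change of the 15 tested receptor genes, 0.56 (SE 0.37), at 11.1 to 38.0 normalized counts. Chrnb4, the usual partner of Chrna3, had one of -0.49 (SE 0.37), at 20.8 to 64.3. The 6 receptor genes under the filter are named after their values were seen. Chrna9, Chrnd and Chrng were at 0 in all libraries, Chrna10 and Chrne at no more than 4.62, and Chrm5 at 5.20 to 12.7.

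**Figure D4:**
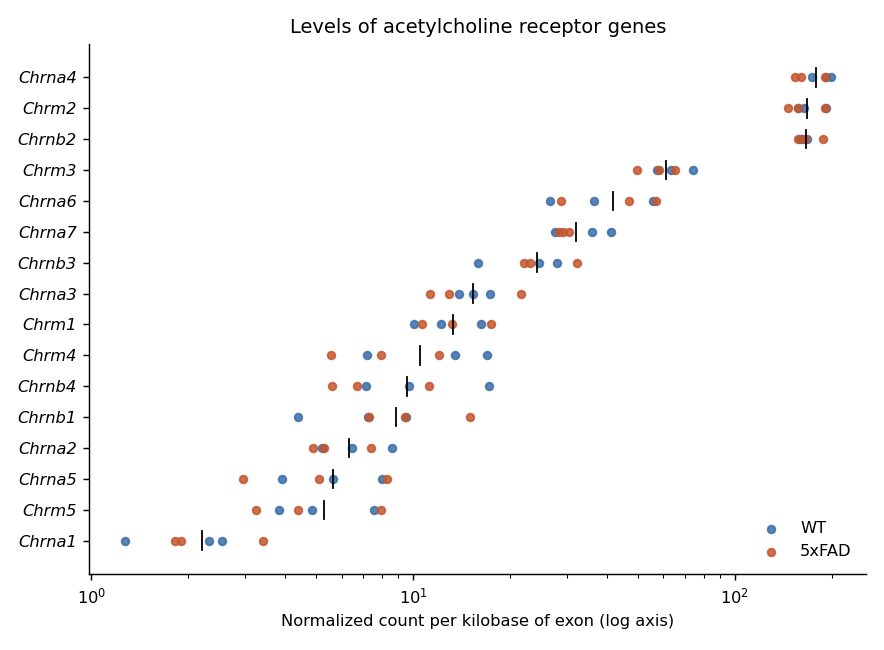
Normalized count per kilobase of exon on a log axis (x axis) of the 16 acetylcholine receptor genes above 0 in every library (y axis); points are the 3 WT and 3 5xFAD libraries, coloured by genotype, and black bars are means over the 6. Chrna4, Chrm2 and Chrnb2 stand together at the top with means of 166 to 178, followed by Chrm3 at 61.2, and the groups overlap in each.

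Genes that handle acetylcholine or assemble its receptors did not pass either. Of 17, 16 were tested, 8 with higher and 8 with lower values, and limma, edgeR and DESeq2 called 0 (0 at an unadjusted p under 0.05 in limma, median log2 fold change 0.01). Acly, which makes cytosolic acetyl-CoA, read 6916, 7420 and 6741 in WT 62, 63 and 66, while 5xFAD 64, 65 and 79 read 6641, 6236 and 6914, at a log2 fold change of -0.09 (SE 0.06). Lynx1, a membrane-anchored modulator of nicotinic receptors, ranged from 6603 to 8089 and differed by -0.07 (SE 0.08) in log2 units. The choline transporter genes Slc44a1 and Slc44a2 had log2 fold changes of 0.08 (SE 0.13) and 0.10 (SE 0.07), and the choline kinase gene Chka one of 0.11 (SE 0.08). The 95% interval excluded a 1.5-fold difference for 13 of the 16.

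Genes of muscarinic signalling, all 19 tested, had 10 higher and 9 lower values with a median log2 fold change of 0.03, and limma, edgeR and DESeq2 called 0 (0 at an unadjusted p under 0.05 in limma). Rgs4, which shortens Gq and Gi signals, showed a log2 fold change of -0.16 (SE 0.10), the phospholipase gene Plcb1 one of -0.09 (SE 0.06) and the inhibitory G protein gene Gnai1 one of 0.06 (SE 0.05). Gnai1 was the only one of the 19 whose groups did not overlap, at 3306 to 3434 in WT and 3478 to 3573 in 5xFAD, and 7.42% of all tested genes had such groups, so this count is near the background. The G protein gene Gnao1 varied little over the libraries, at 8117 to 9037. Itpr1, the inositol trisphosphate receptor that is abundant in Purkinje cells of the cerebellum, varied 5.82-fold, from 2556 in WT 62 to 14879 in 5xFAD 65, and its highest libraries were those with the highest cerebellar sum given above. The 95% interval excluded a 1.5-fold difference for 17 of the 19.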

How the data were processed

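Bulk poly-A RNA sequencing of 3 WT and 3 5xFAD libraries was analysed, grouped by the sample titles. STAR, RSEM, DESeq2 and mm39 are named, per the submitters' processing notes, with roles, annotation and strand not given in the sources used here. The deposited library columns, named as TPM, hold the authors' normalized signal, in which each library's reads per gene are scaled by a size factor: 100% of values were whole multiples of 1 step (tolerance 0.001). The deposited table also gives the authors' log2 fold changes with standard errors, a test score, and p-values, per the file headers. Symbols came from a reference table that matched 91.5% of identifiers.

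The design had assumed that the unit might be TPM. The 16411 genes that reached 10 normalized counts in 3 or more libraries were tested with limma 3.58.1 (R 4.3.3, variance trend, robust moderation) on log2(normalized count + 1), which understates the changes of low genes, with Benjamini-Hochberg adjustment at 0.05. edgeR 4.0.16 and DESeq2 1.42.0 were run on recovered reads, and the fits were tested on simulated data. Ratios were compared with exact permutation tests. Poisson intervals cover counting error only. Genes named were the 10 members, up to 3 per pathway list by p and 3 by mean, 2 per cell type list by mean, and the 6 nearest in pattern; some genes that this rule selects are not reported here. The members and lists were chosen with earlier results of these data known. Figures were made with matplotlib 3.10.9.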

Additional observations from a re-analysis of the deposited data

How the results depend on the processing

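The count of 0 members called held under all 13 alternatives run, including each library left out in turn. The number of genes called over the whole table was 1, and it was 4 with DESeq2 on recovered reads, 0 without the variance trend and robust moderation, and 0 to 2 with 1 library left out. With no filter on low values it was also 1, but that gene was lower in 5xFAD. It was therefore not Thy1, which was higher in 5xFAD at a log2 fold change of 1.23. The log2 fold changes of Ache, Chrm3 and Chrna4 kept their sign in all 13. That of Chat, at 0.00, turned in 9 of 13, to -0.0166 with a pseudocount of 10, -0.00166 with TMM scaling, -0.00574 with quantile normalization, -0.266 with edgeR and -0.255 with DESeq2. With 1 library left out, log2 fold changes ranged over -0.51 to 0.55 for Chat, -0.90 to 0.46 for Slc18a3, -0.70 to 0.22 for Slc5a7, -0.0825 to 0.284 for Chrm1, -0.17 to 0.0241 for Chrm2, -0.35 to 0.12 for Chrna3 and -0.014 to 0.116 for Chrnb2, each with a change of sign. The difference in the log2 ratio of Chat to Slc18a3 ranged over -0.0359 to 0.557, turning without 5xFAD 64, and that of Chrna4 to Chrnb2 over -0.37 to -0.12. The cause of these changes was not tested. No paired analysis was possible because the groups share no replicate numbers. Where a group is left with 2 libraries, they are assumed to vary like the other group. At 34 to 292 reads per library for Chat and Slc18a3, the counting intervals of WT 63 and WT 66 were narrower than the gap between them.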
